A study of Homo sapiens with 6 samples.

Results

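Transforming growth factor-β (TGF-β) is made as an inactive precursor, and the genes described here encode its 3 ligands (*TGFB1*, *TGFB2* and *TGFB3*), its 3 receptors (*TGFBR1*, *TGFBR2* and *TGFBR3*) and the 4 latent TGF-β binding proteins (*LTBP1*, *LTBP2*, *LTBP3* and *LTBP4*). They were taken as members of these gene families, and all 10 were among the 19072 genes tested of 58676 listed. The counts come from RNA-Seq of the human lung fibroblast line MRC5, kept for 24 h in conditioned media (CM) from ATIIER:KRASV12 cells. These are epithelial cells of alveolar type II origin in which 4-hydroxytamoxifen (4-OHT) switches RAS signaling on. The 3 libraries of control ATII CM received medium of control cells, and the 3 libraries of 4-OHT ATII CM received medium of cells treated with 4-OHT. No TGF-β was added to either group. Both groups consist of 1 fibroblast line, and effects of RAS activation and of any 4-OHT left in the medium cannot be told apart, since a removal step and a vehicle are not given in the sources used here. Nor do these give the number of separate cultures, so p values measure the spread between these libraries, which may be technical.

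TGF-β ligands are secreted bound to their own cleaved propeptide, which keeps them from their receptors. In this latent complex the propeptide is commonly joined to a latent TGF-β binding protein, which anchors the complex in the extracellular matrix on fibrillin and fibronectin. Release, for example by integrins that pull on the propeptide or by proteases, lets the ligand bind *TGFBR2*, which recruits and activates *TGFBR1*, a kinase for the SMAD proteins. In lung fibroblasts this signal is the best known inducer of matrix production and of the myofibroblast state.

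Among the 10 genes, *LTBP1* and *LTBP2* fell in 4-OHT ATII CM, by 18.4% and 12.9%. *LTBP3* and *LTBP4* were higher by 8.30% and 7.41% without passing the threshold of an adjusted p below 0.05 (edgeR quasi-likelihood test with Benjamini-Hochberg adjustment over all genes tested). None of the ligands or receptors passed it. In all, 0 of the 10 genes were called up and 2 called down, beside 5.72% of all genes tested that were called in either direction (2.95% up and 2.76% down). Among genes with a mean of at least 10 CPM, counts scaled by library size after TMM normalization, as 9 of the 10 were, 10.2% were called (5.54% up and 4.66% down). Without adjustment 4 of the 10, the LTBP genes, had a p below 0.05, as did 3306 of all genes. The median log2 fold change of the 10 genes was 0.024, and that of all genes tested was -0.0020. Fold changes are those of 4-OHT ATII CM over control ATII CM throughout.

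Library totals ranged from 17691849 to 26389449 counts. The square root of the common dispersion, the typical variation of a gene between replicates beyond counting noise, was 4.36%. Replicate 2 of control ATII CM, the library with the fewest counts, stood apart on the second principal component. Without it, 1 of the 10 genes was called up and 2 were called down. Over all 18682 genes tested in that fit, 696 were called up and 834 down. The 10 fibroblast markers were all tested, with *COL1A1* at 16314 to 18417 CPM over the 6 libraries. Of these markers 4 were called up (*COL3A1*, *PDGFRA*, *DCN* and *LUM*, by log2 fold changes of 0.18, 0.22, 0.33 and 0.29) and *VIM* was called down (-0.10). Of 12 lung epithelial markers 7 had enough counts to be tested and none was called. The summed level of those 7 was 92.3 to 98.4 CPM in control ATII CM and 90.2 to 96.5 CPM in 4-OHT ATII CM, most of it *KRT8* and *KRT18*, and *SFTPA1* and *ESRP1* had no count. Of 6 endothelial markers *TEK* alone was above 1 CPM, and it was called up (log2 fold change 0.37, adjusted p = 0.000162 from edgeR), at 128 ± 9.06 and 167 ± 4.57 CPM (SD, n = 3 each), with *PECAM1* and *CDH5* at 0 counts. Of 6 immune markers *CD14* alone had enough counts, at most 1.86 CPM, with *CD3E* and *MS4A1* at 0 counts. Of 5 smooth muscle markers 4 were tested, summed at 681 to 704 and 685 to 709 CPM, and *LMOD1* was called up (log2 fold change 0.15, adjusted p = 0.0237 from edgeR). The part of such cells in the results was not tested, and in bulk RNA fewer cells of a type and less RNA per cell cannot be told apart.

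The stretches of DNA before the starts of *LTBP1* and *LTBP2* are shown because these are the members whose transcripts fell together. All 10 genes matched RefSeq promoter entries (GRCh38.p14), 23 start sites in all, and each stretch below is the 250 bases before a start, read 5′ to 3′ on the strand of the gene. Capitals mark CAGAC, the core of the element bound by SMAD proteins, and GGGCGG, the GC box bound by factors of the SP1 family, on either strand, where they read GTCTG and CCGCCC.
LTBP1, first start, chr2:32946703-32946952, plus strand: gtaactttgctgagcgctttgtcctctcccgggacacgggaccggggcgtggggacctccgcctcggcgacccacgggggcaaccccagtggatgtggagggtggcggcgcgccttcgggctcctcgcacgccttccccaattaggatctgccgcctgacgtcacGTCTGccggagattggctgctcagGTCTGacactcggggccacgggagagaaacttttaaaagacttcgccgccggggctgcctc
LTBP1, last start, chr2:33134346-33134595, plus strand: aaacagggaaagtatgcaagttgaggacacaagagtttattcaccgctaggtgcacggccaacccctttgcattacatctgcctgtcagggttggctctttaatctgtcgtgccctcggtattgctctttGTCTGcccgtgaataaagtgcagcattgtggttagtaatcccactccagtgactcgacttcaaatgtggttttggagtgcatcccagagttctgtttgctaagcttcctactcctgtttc
LTBP2, chr14:74612238-74612487, minus strand: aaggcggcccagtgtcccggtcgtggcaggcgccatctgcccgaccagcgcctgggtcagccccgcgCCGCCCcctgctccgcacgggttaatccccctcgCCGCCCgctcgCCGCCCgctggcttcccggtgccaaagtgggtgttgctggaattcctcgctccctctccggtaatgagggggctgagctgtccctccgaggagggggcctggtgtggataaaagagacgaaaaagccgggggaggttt

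The first stretch of *LTBP1* held CAGAC 2 times, starting 61 and 85 bases before the start, and no GC box. That of *LTBP2* held the GC box 3 times, at 138, 149 and 183 bases, and no CAGAC. The last start of *LTBP1* had CAGAC once, at 120 bases. A start between these, whose stretch overlaps that of the last and is therefore not shown, had it once too, at 89 bases, and neither held a GC box. None of these 4 stretches had a match to TGANTCA, the site of AP-1 factors, to GTCTAGAC, the palindrome of 2 SMAD elements, or to TATAAA, the TATA box. A match is a description of the sequence and says nothing of binding. The same motifs stood before starts of members that were not called, with CAGAC 2 times at *TGFB2* and GGGCGG 6 times at *TGFB1*. CAGAC was found in 38.0% and GGGCGG in 42.5% of 34943 such stretches, TGANTCA in 6.59%, TATAAA in 10.8% and GTCTAGAC in 0.183%. No 2 matches overlapped in the 4 stretches of *LTBP1* and *LTBP2*, and the gene counts do not tell which *LTBP1* start was in use.

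Expression per length put *LTBP1* first among the 10 genes. Levels in TPM, which are counts scaled by the length of each gene's merged exons and then to the same sum in every library, had means over the 6 libraries of 358 TPM for *LTBP1*, 233 TPM for *TGFBR2* and 232 TPM for *LTBP4*. They were followed by *TGFB1* at 183 TPM, *LTBP2* at 155 TPM, *LTBP3* at 70.2 TPM, *TGFBR1* at 47.3 TPM and *TGFB2* at 40.04 TPM. *TGFBR3*, at 7.68 TPM, and *TGFB3*, at 1.57 TPM, were the lowest. The ranges over the libraries overlapped between *TGFBR2* and *LTBP4* and between no other neighbours in this order. The place of *TGFB2* depends on its length, since with the length not shared with another gene it lay above *TGFBR1*, at 53.4 to 57.2 TPM against 46.6 to 49.3 TPM.

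**Figure D1:**
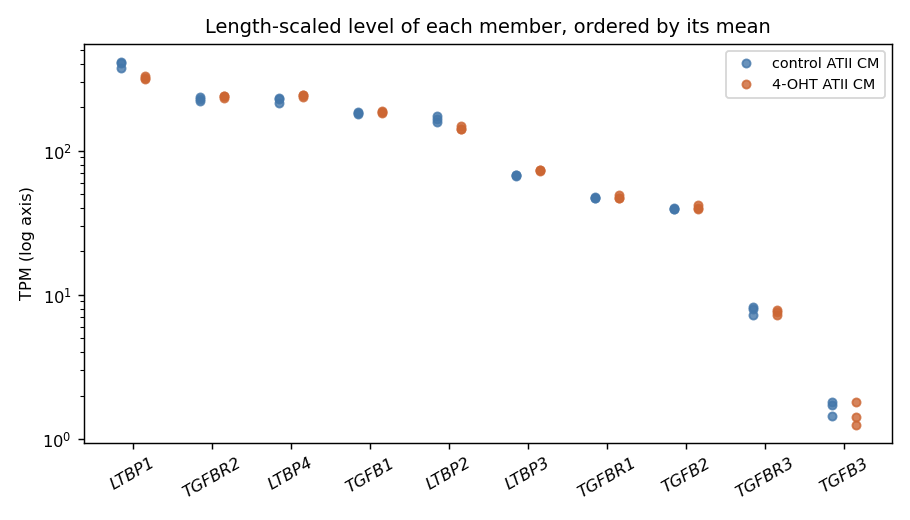
Length-scaled level of each gene in TPM on a log axis, with 1 point per library in control ATII CM (blue) and 4-OHT ATII CM (orange). The order runs from *LTBP1*, at 315 to 411 TPM, to *TGFB3*, at 1.26 to 1.80 TPM, and the groups separate visibly for *LTBP1*.

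*TGFB1* (ENSG00000105329, chromosome 19 of GRCh38, 41301587 to 41353911, minus strand) encodes the most studied ligand in fibrosis. Its level was 142, 148 and 144 CPM in control replicates 1 to 3 and 145, 151 and 145 CPM in replicates 1 to 3 with 4-OHT ATII CM. With overlapping groups, the log2 fold change of 0.023 had a standard error of 0.0363 and an adjusted p of 0.820 in edgeR. As a percentage of the control level, its 95% interval ran from -3.69% to 7.18%. Of its exon bases 6.64% are shared with *HNRNPUL1* on the opposite strand.

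*TGFB2* (ENSG00000092969, chromosome 1, 218346235 to 218444619, plus strand), a ligand that depends on *TGFBR3* for efficient receptor binding, was at 50.2, 50.3 and 49.7 CPM in control ATII CM. In 4-OHT ATII CM it was at 49.1, 51.4 and 53.3 CPM. The groups overlapped here too, and the log2 fold change was 0.035 (adjusted p = 0.755 in edgeR, standard error 0.0429) with an interval from -3.82% to 9.17%. Exons of *TGFB2-OT1*, which had no count in any library, cover 26.6% of the exon bases of *TGFB2* on the same strand, and reads there may not have been assigned to either. With the 3780 bases not shared as its length, *TGFB2* was at 53.4 to 57.2 TPM.

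*TGFB3* (ENSG00000119699, chromosome 14, 75958099 to 75982991, minus strand), the third ligand, had few counts, 44, 31 and 49 counts for control ATII CM against 37, 55 and 40 counts for 4-OHT ATII CM. Its log2 fold change of -0.14 (adjusted p = 0.790 in edgeR, standard error 0.203) had an interval from -33.0% to 22.1%, so that a change of the size of that in *LTBP1* would not have been detectable at this depth. Of the length-scaled ligand output of a library, *TGFB1* made up 81.5% ± 0.392 in control ATII CM, against 81.5% ± 0.624 in 4-OHT ATII CM (SD, n = 3 each). *TGFB2* held 17.7% ± 0.322 and 17.9% ± 0.701, and *TGFB3* held less than either, with 0.738% ± 0.0937 and 0.658% ± 0.117. With only the length not shared with another gene, *TGFB2* held 21.5% and 21.7% and *TGFB1* 77.8% and 77.7% (means, control first). The ligand shares overlapped between the groups, with exact two-sided permutation p values of 0.4 to 1 (n = 3 each).

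*TGFBR1* (ENSG00000106799, chromosome 9, 99104038 to 99154192, plus strand), the type I receptor kinase, varied little, with 79.1, 78.6 and 78.7 CPM in control ATII CM and 82.0, 79.7 and 78.9 CPM in 4-OHT ATII CM. The log2 fold change was 0.025 (adjusted p = 0.802 in edgeR, standard error 0.0367) with an interval from -3.63% to 7.40%. *TGFBR2* (ENSG00000163513, chromosome 3, 30606502 to 30694142, plus strand), the type II receptor that binds the ligand first, was at 269, 257 and 266 CPM in control ATII CM. It was at 275, 280 and 268 CPM in 4-OHT ATII CM, and 1 library of this group lay below the highest control library. Its log2 fold change of 0.055 (adjusted p = 0.447 in edgeR, standard error 0.0334) had an interval from -1.11% to 9.14%.

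*TGFBR3* (ENSG00000069702, chromosome 1, 91680343 to 91906335, minus strand) encodes betaglycan, a proteoglycan that presents ligand to the signaling receptors. It was at 16.96, 15.6 and 17.5 CPM in control ATII CM and at 16.1, 16.9 and 15.4 CPM in 4-OHT ATII CM, with overlapping groups. The log2 fold change was -0.051 (adjusted p = 0.798 in edgeR, standard error 0.0732), with an interval from -13.3% to 7.56%. In the make-up of the receptors *TGFBR2* held 80.7% ± 0.213 and 81.1% ± 0.251 of the length-scaled receptor output in control and 4-OHT ATII CM (SD, n = 3 each, exact two-sided permutation p = 0.2). By plain counts the groups just missed overlapping, at 73.2% to 73.7% in control and 73.7% to 74.3% in 4-OHT ATII CM (exact permutation p = 0.1, the smallest possible, n = 3 each).

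**Figure D2:**
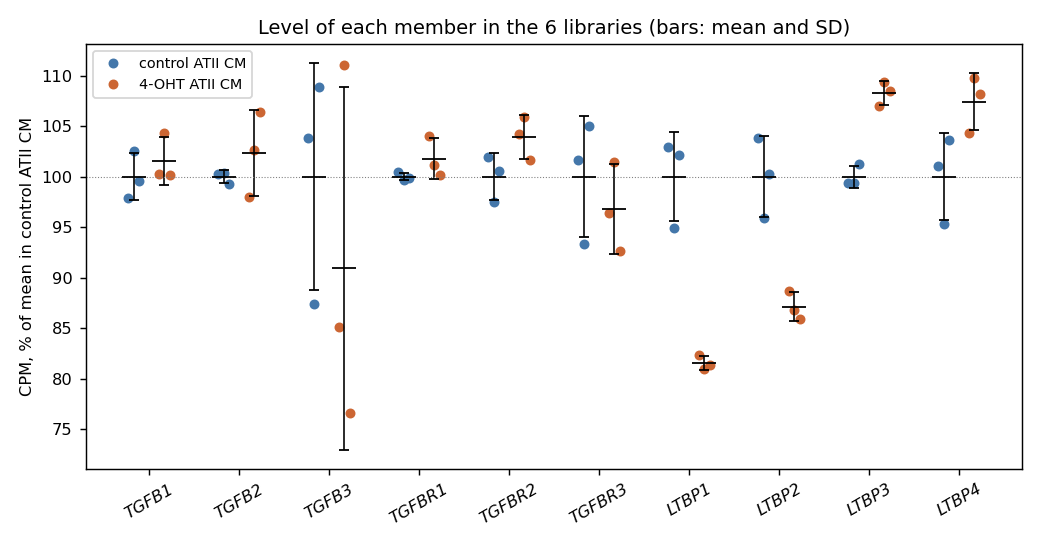
CPM of each gene in each library as a percentage of its mean in control ATII CM, with points for libraries and bars for the mean and SD of the 3 libraries of a group. The axis does not start at 0. *LTBP1* and *LTBP2* lie below all control libraries in 4-OHT ATII CM, *LTBP3* and *LTBP4* lie above them, and the other genes overlap.

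*LTBP1* (ENSG00000049323, chromosome 2, 32946972 to 33399509, plus strand) encodes the binding protein that was found first and that tethers latent TGF-β to fibronectin and fibrillin fibers. Its counts were 15601, 12035 and 16423 in control replicates 1 to 3, or 731, 674 and 725 CPM. In 4-OHT ATII CM they were 12799, 14337 and 15185, or 585, 575 and 578 CPM. All 3 libraries of 4-OHT ATII CM lay below all 3 of control ATII CM, with a wider spread in the controls (SD 31.3 CPM) than in 4-OHT ATII CM (SD 4.98 CPM). The log2 fold change was -0.29 (adjusted p = 7.66e-05 in edgeR, standard error 0.0335), with an interval from -22.4% to -14.3%. By p value it was the 58th of the 19072 genes and the 25th of those that were lower. It was called in all 17 alternatives, with log2 fold changes from -0.33 to -0.27. An unnamed gene on the opposite strand, ENSG00000285577, shares 3.40% of its exon bases and had 3 counts in all.

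*LTBP2* (ENSG00000119681, chromosome 14, 74498170 to 74612378, minus strand) encodes a microfibril protein of the same family that, unlike the others, is not known to bind latent TGF-β. It was at 385, 355 and 372 CPM in control ATII CM and 328, 322 and 318 CPM in 4-OHT ATII CM. As with *LTBP1*, the groups did not overlap and replicate 2 had the lowest value of the controls. The log2 fold change was -0.20 (adjusted p = 0.00260 in edgeR, standard error 0.0349), with an interval from -17.3% to -8.32%. It too was called in all 17 alternatives, with log2 fold changes from -0.23 to -0.17 and adjusted p values up to 0.0243.

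*LTBP3* (ENSG00000168056, chromosome 11, 65538805 to 65558930, minus strand), which encodes a binding protein that joins each of the latent ligands, had a fold change of the opposite sign. It was at 169, 169 and 173 CPM in control ATII CM and 182, 186 and 185 CPM in 4-OHT ATII CM, and the groups did not overlap. Its log2 fold change of 0.12 (adjusted p = 0.0548 in edgeR, standard error 0.0331) lay just outside the threshold, and its unadjusted interval ran from 3.13% to 13.7%. It was called in 6 of 17 alternatives, among them DESeq2 (adjusted p = 0.0470), limma-voom (0.0338) and the fit without control ATII CM replicate 2 (0.0354), and its fold change was above 0 on the log2 scale in all 17. Its adjusted p ranged from 0.00657 to 0.206.

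*LTBP4* (ENSG00000090006, chromosome 19, 40592883 to 40629818, plus strand) encodes the binding protein that pairs with the ligand of *TGFB1* and helps to assemble elastic fibers. It was at 451, 425 and 462 CPM in control ATII CM and 465, 490 and 483 CPM in 4-OHT ATII CM. The lowest library of 4-OHT ATII CM lay just above the highest control library. The log2 fold change was 0.10 (adjusted p = 0.121 in edgeR, standard error 0.0357), and it was called in 3 of 17 alternatives, with adjusted p values from 0.0178 to 0.339. Removing the trends of the libraries with GC content and length took the log2 fold changes of *LTBP3* and *LTBP4* to 0.15 and 0.12 (adjusted p = 0.00657 and 0.0178 from edgeR). Of the 10 genes, 2 were without overlap in the higher direction and 2 in the lower, beside 22.1% of all genes tested (11.7% higher and 10.4% lower) and 30.4% of genes of at least 10 CPM.

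**Figure D3:**
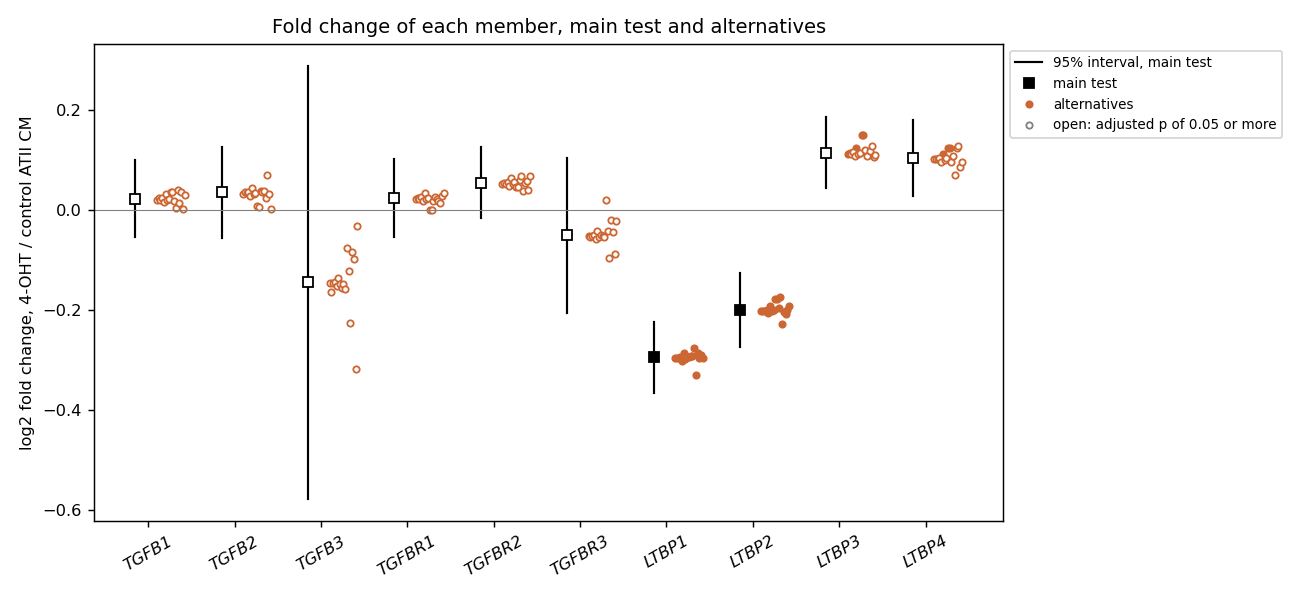
Log2 fold change of each gene with its 95% interval from the main edgeR test (squares and lines) and from 17 alternative tests, scalings, filters and sets of libraries (orange points). Filled symbols had an adjusted p below 0.05. *LTBP1* and *LTBP2* are filled throughout, *LTBP3* and *LTBP4* in some alternatives, and the ligands and receptors in none.

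The make-up of the LTBP transcripts, which does not depend on how libraries are scaled against each other, differed between the groups without overlap, with less *LTBP1* and more *LTBP4* in 4-OHT ATII CM. *LTBP1* made up 46.6%, 46.0% and 46.3% of the length-scaled LTBP output in control ATII CM, against 41.8%, 40.8% and 41.2% in 4-OHT ATII CM. The difference in means was -5.04 percentage points, beside SDs of 0.293 and 0.490 (n = 3 each). *LTBP4* held 26.3% ± 0.371 in control and 30.9% ± 0.717 in 4-OHT ATII CM, a difference of 4.55 points. *LTBP2* held 19.5% ± 0.318 and 18.5% ± 0.335, and *LTBP3* held 7.92% ± 0.281 and 9.36% ± 0.0723 (SD, n = 3 each, control first). Since the shares of a library sum to 100%, lower shares of *LTBP1* and *LTBP2* raise those of *LTBP3* and *LTBP4*, which were not called themselves. The groups did not overlap for any of the 4 shares. With 3 libraries against 3 the exact permutation test (two-sided) cannot go below 0.1, and each share reached that p. Adjusted over the 10 shares this p was 0.25. Summed over the 4 genes, LTBP output was 882, 811 and 869 TPM in control ATII CM and 786, 772 and 776 TPM in 4-OHT ATII CM. Ligand output was 224 ± 2.77 and 226 ± 2.35 TPM, and receptor output was 284 ± 7.95 and 292 ± 6.35 TPM (SD, n = 3 each), and both overlapped between the groups.

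**Figure D4:**
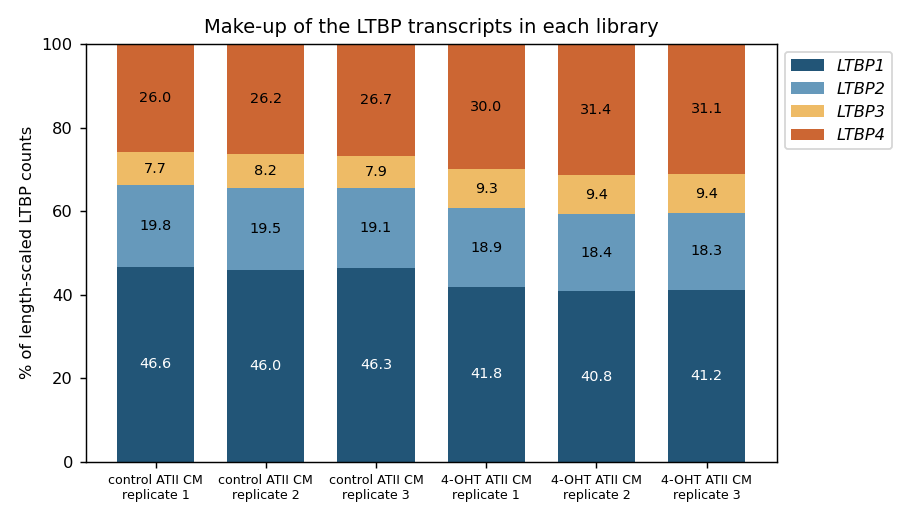
Percentage of the length-scaled LTBP counts that each of the 4 genes held in each library, stacked to 100%. *LTBP1* holds 46.0% to 46.6% in control ATII CM and 40.8% to 41.8% in 4-OHT ATII CM, and *LTBP4* goes from between 26.0% and 26.7% to between 30.04% and 31.4%.

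Within libraries, 8 pairs of these genes were compared, 4 of them with *LTBP1* and 4 among ligands or receptors. The groups did not overlap for the 4 pairs with *LTBP1*, and pairs of the other LTBP genes were not compared. All 4 share *LTBP1*, whose own groups did not overlap, so they are not separate from its fall. On the log2 scale the ratio of *LTBP1* to *LTBP4* was 0.82 ± 0.0247 in control ATII CM, against 0.42 ± 0.0505 in 4-OHT ATII CM. The ratio to *LTBP3* went from 2.55 ± 0.0599 to 2.14 ± 0.0280. Between the 2 genes that fell, the log2 ratio of *LTBP1* to *LTBP2* was 1.25 ± 0.0226 in control ATII CM, against 1.15 ± 0.0154 in 4-OHT ATII CM. The log2 ratio of *TGFB1* to *LTBP1* was -1.11 ± 0.0976 and -0.80 ± 0.0434 (SD, n = 3 each for these ratios). Each reached 0.1, the lowest p of the exact permutation test at this size (two-sided), which was 0.2 after adjustment over the 8 pairs. The ratios of *TGFB1* to *TGFB2*, *TGFB1* to *TGFB3*, *TGFBR1* to *TGFBR2* and *TGFBR2* to *TGFBR3* overlapped, with exact permutation p values of 0.2 to 0.9 (n = 3 each).

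Over the 6 libraries, *LTBP2* followed *LTBP1* with a Pearson correlation of log2 CPM of 0.988, and *LTBP3* ran opposite to it with -0.937. The 5 genes most like *LTBP1* among 9201 others of at least 10 CPM were *MKI67*, a marker of dividing cells (0.998), *GALNT5*, which encodes a glycosyltransferase (0.996), *LOX*, a collagen and elastin cross-linking enzyme (0.995), *EIF4G1*, a translation initiation factor (0.995), and *MYOF*, which encodes the membrane protein myoferlin (0.993). *MKI67* was at 41.5 CPM on average in control and 24.2 CPM in 4-OHT ATII CM, and the part of cell division in the fall of *LTBP1* was not tested. The log2 fold changes of the 5 genes were -0.78, -0.20, -0.17, -0.10 and -0.33. These correlations are descriptions of 6 libraries in 2 groups, so any gene that differed between the groups scores high, and with 9201 genes searched some high values come from the number searched.

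Other genes of the pathway were followed through 6 lists by role, 88 genes in all, of which 82 had enough counts to be tested. Of these 82, 20 were called up and 5 down, which is 30.5%, beside the 5.72% of all genes tested and 10.2% of those of at least 10 CPM. Their median log2 fold change was 0.065. Of the 25, 14 were called in all 17 alternatives and none changed sign in any of them. The other 11 were *ELN*, *ITGB5*, *MFAP2* and *ITGB8*, called in 4 to 11 alternatives, *FN1*, *FBLN5*, *ACVRL1* and *ID1*, called in 14 each, *THBS1*, called in 15, and *MMP2* and *FMOD*, called in 16 each. Apart from *FN1* with DESeq2, the last 7 genes lost their calls where 1 library was left out, most often replicate 2 or 3 of 4-OHT ATII CM. The lists were written by hand with earlier results of these libraries known, and several of their genes had been seen to change, so that this share is a description.

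Among 18 genes of latency and activation, 16 were tested, 5 were called up and 1 was called down (median log2 fold change 0.065). *TGM2*, the transglutaminase that cross-links latent complexes to the matrix, rose from 249 ± 3.15 to 325 ± 3.17 CPM (SD, n = 3 each), which is 0.38 on the log2 scale (adjusted p = 4.19e-06 from edgeR). *ITGB3*, an integrin subunit that can release latent TGF-β, rose from 25.0 ± 0.483 to 32.6 ± 0.873 CPM, by a log2 fold change of 0.38 (adjusted p = 0.000336). *MMP2*, a matrix metalloproteinase, and *THBS1*, whose product thrombospondin-1 can activate latent TGF-β, rose by log2 fold changes of 0.14 each (adjusted p = 0.00454 and 0.0189). The remaining 2 calls, both on integrin β subunits that bind the propeptide, went in opposite directions and were the least stable. *ITGB8* rose by 0.28 and *ITGB5* fell by 0.12 on the log2 scale (adjusted p = 0.0379 and 0.0399), and they were called in 11 and 9 of 17 alternatives. *ITGB6* and *MMP9* had no count in any library.

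Of 14 matrix partners of the latent complexes 12 were tested, with 5 called up, 1 called down and a median log2 fold change of 0.15. The microfibril-associated *MFAP4* rose from 434 ± 6.75 to 514 ± 7.41 CPM and *FBLN1*, which encodes fibulin-1, from 477 ± 4.46 to 558 ± 6.92 CPM (SD, n = 3 each). Their log2 fold changes were 0.24 and 0.23 (adjusted p = 0.000163 and 0.000216 from edgeR). *FBLN5* (0.15), *MFAP2* (0.18) and *ELN* (0.21), which encode a fibulin, a microfibril glycoprotein and elastin, also rose (adjusted p = 0.00891, 0.0385 and 0.0489). *MFAP2* was called in 10 of 17 alternatives and not with DESeq2 (adjusted p = 0.0973), and *ELN*, whose groups overlapped, in 4. Fibronectin and fibrillin-1, to which *LTBP1* is tethered, did not rise. *FN1*, fibronectin, fell by 0.32 on the log2 scale (adjusted p = 0.0107) and was not called with DESeq2 (0.0891), without control ATII CM replicate 3 (0.0542) or without 4-OHT ATII CM replicate 2 (0.0641). It was at 7503, 5651 and 7274 CPM in control ATII CM and 5538, 5416 and 5440 CPM in 4-OHT ATII CM. *FBN1*, fibrillin-1, was at 754, 515 and 708 CPM in control ATII CM and 562, 587 and 572 CPM in 4-OHT ATII CM (log2 fold change -0.20, adjusted p = 0.257). In both genes replicate 2 of control ATII CM lay far below the other controls, more so than in *LTBP1*. Without that library 6 genes of the list were called up and 3 called down, beside 696 up and 834 down of 18682 genes tested.

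Of 11 genes for proteins that bind, trap, cleave or antagonize ligands of the TGF-β family, 9 were tested and 4 were called up, none down (median log2 fold change 0.29). That median is the value of *ASPN*, which was not called (adjusted p = 0.635 from edgeR) and had a mean of only 0.93 CPM. *FMOD*, fibromodulin, rose by 0.36 from 16.98 ± 1.26 CPM, *A2M*, α2-macroglobulin, by 0.36 from 98.7 ± 7.44 CPM, *DCN*, decorin, by 0.33 from 3878 ± 5.38 CPM and *LUM*, lumican, by 0.29 from 509.9 ± 11.7 CPM on the log2 scale (SD, n = 3 each, adjusted p = 0.00638, 0.000331, 2.66e-06 and 3.99e-05 from edgeR). *LEFTY1* and *LEFTY2*, which encode secreted antagonists of related ligands, had no count in any library.

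Of 16 co-receptors and receptor regulators 3 were called up, none down, and the median log2 fold change was 0.028. *SMAD7*, the inhibitory SMAD that TGF-β itself induces, rose from 37.95, 44.4 and 40.7 CPM to 51.7, 53.8 and 56.3 CPM, a log2 fold change of 0.40 (adjusted p = 0.000336 from edgeR). *BAMBI*, a decoy receptor without a kinase domain, rose by 0.29 and *ACVRL1*, an alternative type I receptor, by 0.19 (adjusted p = 0.00268 and 0.0120). *ENG*, which encodes the co-receptor endoglin, was at 261 ± 3.47 and 257 ± 6.91 CPM in control and 4-OHT ATII CM (log2 fold change -0.021, adjusted p = 0.824). In the list of 8 SMAD core genes and corepressors the single call was *SMAD3*, the receptor-activated SMAD most tied to matrix genes. It fell from 369.9 ± 4.59 to 332 ± 3.38 CPM (SD, n = 3 each), which is -0.16 on the log2 scale (adjusted p = 0.00546 from edgeR). *SMAD2* and *SMAD4* had log2 fold changes of 0.031 and 0.030 (adjusted p = 0.775 and 0.830).

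Of 27 target genes of TGF-β, all tested, 5 were called up and 3 down, with a median log2 fold change of 0.063. Those called up were *SMAD7*, *TGFBI* (0.17), *ID3* (0.31), *ID1* (0.23) and *ELN*, and *LOX* (-0.17) and *FN1* were among those called down (edgeR, as above). *CCN2*, connective tissue growth factor, was at 811 ± 23.2 and 742 ± 74.2 CPM (log2 fold change -0.13, adjusted p = 0.195), *COL1A1* had a log2 fold change of -0.092 (adjusted p = 0.0861) and *ACTA2* one of 0.072 (adjusted p = 0.282). *COL1A1* was called in 5 of 17 alternatives, among them the fit without control ATII CM replicate 2 (-0.14, adjusted p = 1.80e-05 from edgeR), *CCN2* in 2 and *ACTA2* in 0. The value of *CCN2* rested on single libraries, with a log2 fold change of -0.053 without 4-OHT ATII CM replicate 1 (adjusted p = 0.608 from edgeR) and -0.20 without replicate 2 of that group (0.0276). The called targets thus went both ways. *ID1* and *ID3*, which rose, are induced above all by the related bone morphogenetic proteins, and *SMAD7* by both. The part of bone morphogenetic proteins in these changes was not tested.

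**Figure D5:**
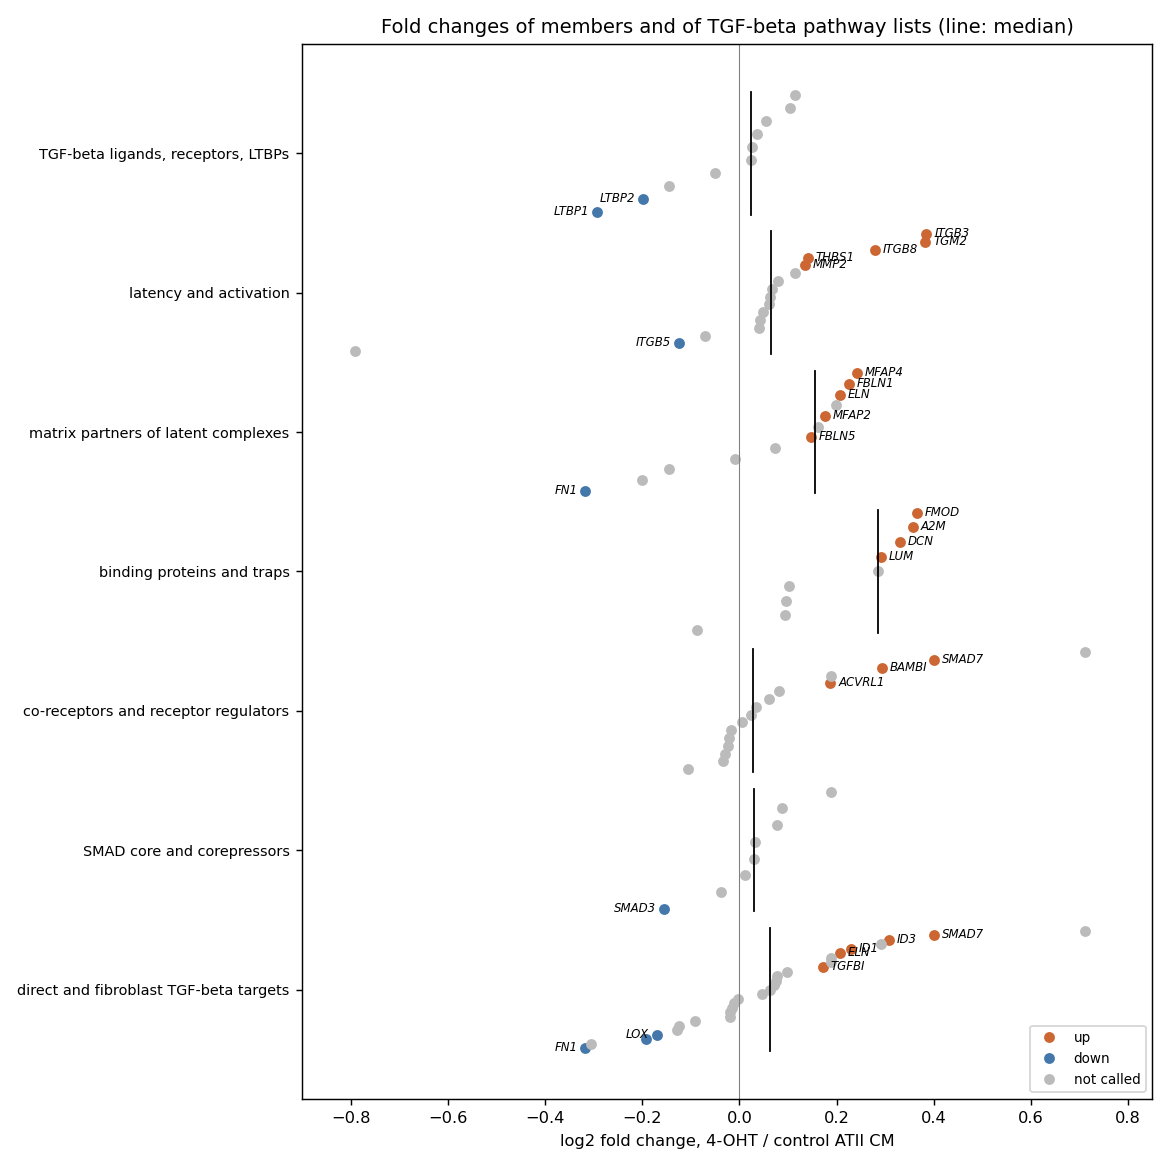
Log2 fold change of each tested gene of the 10 members and of the 6 pathway lists, with 1 point per gene, colored by its call at an adjusted p below 0.05, and a line at the median of each row. Points within a row are spread vertically by rank for legibility. Most called genes carry their symbols, and those of the binding proteins and traps lie to the right, at 0.29 to 0.36.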

How the data were processed

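Paired-end RNA-Seq reads were trimmed by the authors with Trim Galore, mapped to Ensembl GRCh38 with HISAT2 2.1.0 and counted with featureCounts 1.6.5. The authors deposited unnormalized counts for each gene and library, together with the merged exon length per gene. The annotation release, strand setting and treatment of reads with several hits are not given in the sources used here. Counts of 45 repeated identifiers were added. Symbols came from GENCODE release 44 names (58207 of 58676 identifiers).

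Genes with at least 10 counts over the 6 libraries were tested with edgeR 4.0.16 (R 4.3.3), TMM normalization and group as the only term. Benjamini-Hochberg adjustment ran over all genes tested, with a threshold of 0.05. CPM used TMM-normalized library sizes, and TPM used the length column. Standard errors and 95% intervals were computed from fold change, F and its degrees of freedom. Shares and ratios were compared by exact permutation tests over libraries (Python 3.11.15). DESeq2 1.42.0, the tool of the study in another version, and limma-voom (limma 3.58.1) were among the alternatives. The edgeR, DESeq2 and limma-voom tests, but not the permutation tests, were also run on simulated counts with the same dispersion for every gene. The outcome is not reported here.

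The genes and lists were chosen with earlier results of these data known. Named were all 10 members, the 5 genes most correlated with *LTBP1*, up to 6 called genes per list with the smallest p, and *ACTA2*, *CCN2*, *SMAD7* and *COL1A1*. The values of 1 gene of the target list are not reported here, and it is kept in the counts and medians. *FBN1*, *ENG*, *SMAD2*, *SMAD4*, *ASPN* and genes without counts were named after their values were seen. Replicate numbers were taken from the labels. Replicate libraries differed beyond counting noise, with chi-square over its degrees of freedom at 2.04 to 5.56.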

Additional observations from a re-analysis of the deposited data

How the results depend on the processing

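The calls for *LTBP1* and *LTBP2* held in all 17 alternatives, and no ligand or receptor was called in any. *LTBP3* became a call with DESeq2 (log2 fold change 0.11), limma-voom (0.11), no filter on low counts (0.12), the GC and length correction (0.15) and that correction with the replicate block (0.15), and its values with 1 library left out ranged from 0.11 to 0.13. *LTBP4* became one without the filter (0.11) and with the correction, alone (0.12) or with the block (0.12). The number of the 10 genes called up was therefore 1 with DESeq2 and limma-voom, 2 in the 3 settings that called *LTBP4*, and 0 to 1 with libraries left out. *TGFBR1* changed sign under the correction, alone (-0.00011) and with the block (-0.00045), and *TGFBR3* in libraries thinned to the smallest total (0.020), each without a call. Over all genes, 875 were called up without the filter, and with 1 library left out 289 to 696 were called up and 244 to 834 down. Both extremes came from the same libraries, 4-OHT ATII CM replicate 2 for the lowest and control ATII CM replicate 2 for the highest. DESeq2 called 954 genes (5.0%). The cause of these shifts was not tested.

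Deviations from the group means had correlations of -0.014, -0.10 and -0.093 between same-numbered libraries. The highest, 0.16, was between different numbers, so no pairing by number was seen. With 3 libraries per group such correlations cannot exclude one. The replicate block gave 502 genes up and 483 down, with log2 fold changes of -0.29 for *LTBP1* and -0.20 for *LTBP2*. Among the lists, the block left 0 latency genes called down and 3 matrix partners called up. DESeq2 gave 3 up and 0 down for matrix partners, and the correction, added for lists after the data were seen, gave 8 up there and 1 co-receptor down. With 1 library left out, calls ranged from 2 to 5 up and 0 to 1 down for latency, 2 to 6 up and 0 to 3 down for matrix partners, 3 to 7 up and 2 to 5 down for targets, and 0 to 1 down for traps. Plain counts in place of length-scaled ones moved the share difference of *TGFBR3* to -0.28 and of *LTBP3* to 1.74 percentage points. Depth limits *TGFB3*, with 31 to 55 counts per library.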
